A study of Mus musculus with 6 samples.

Results

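The contact zone between epithelium and mesenchyme of the embryonic mouse dorsal pancreas was described from 2 RNA sequencing libraries of control embryos at embryonic day 12.5 (E12.5), 1 of sorted mesenchymal cells and 1 of sorted epithelial cells, out of 6 libraries in the series. Of 24062 genes listed, 12066 reached 5 CPM (counts per 1000000, scaled to library size) in at least 1 of the 2 libraries and are called measured. The control embryos carry mTmG, a reporter that makes cells red (Tomato) and, where Cre recombinase has acted, green (GFP). The labels name mTmG alone for the controls and do not say how green cells were obtained from them. The other E12.5 pair used here carries mTmG+/- with Nkx2.5-Cre+/-, which drives Cre from the Nkx2-5 locus of splanchnic mesenchyme, and, among its other alleles, 1 mutant copy of Pbx2 (Pbx2+/-). All buds were dissociated and sorted on red and green fluorescence, and each library was made from a pool of sorted fractions.

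The pancreas forms where gut endoderm, which becomes the branching epithelium, grows into splanchnic mesenchyme. In general, mesenchyme sends growth factors such as Fgf10 to receptors on epithelial progenitors, while epithelial ligands act back on the mesenchyme. The tissues meet at a basement membrane of laminins, type IV collagen, nidogens and proteoglycans, to which cells bind through integrins.

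With 1 pooled library on each side there is no replicate check, and no p-value is given. The mesenchyme library held 14829378 counts on genes and the epithelium library 20276045. The name of the control epithelium table carries another date than those of the other 5 tables and lacks their word for combined data. What these stand for is not given, and any effect on the ratios cannot be told apart from the tissue. Each fold change compares these libraries and carries a 95% interval that covers counting error only. A gene is called where the libraries differed by 2-fold or more and the interval left out 1. By that rule, libraries of the same fraction but different genotype also differed: 1.79% of genes were higher and 3.21% lower in the mutant epithelium than in the control, and 1.96% and 3.50% in the mesenchyme. A call alone therefore does not show a difference between tissues.

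The sort was checked against markers. All 18 pancreatic epithelium markers were lower in the mesenchyme library, with summed levels of 76.8 CPM there and 7115 CPM in epithelium. Of 18 pancreatic mesenchyme markers 10 were higher in mesenchyme and none was lower, but their summed level was 10087 CPM in mesenchyme and 4547 CPM in epithelium. The markers thus lay on the labelled side, but unequally. The mesenchyme library nearly lacked epithelial transcripts, and the epithelium library held many mesenchymal ones. In pools such as these, fewer cells of a type and less RNA per cell cannot be told apart.

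Endothelial, leukocyte and neural markers also lay mostly on the epithelium side. Of 22 endothelial markers 19 were lower in mesenchyme, with summed levels of 149 CPM in mesenchyme and 514 CPM in epithelium, and 8 of them (Cdh5, Tie1, Erg, Emcn, Sox7, Cldn5, Mmrn1 and Icam2) had no read in mesenchyme. Of 21 leukocyte markers 20 were lower, with sums of 150 and 892 CPM, and S100a9, Ltf and Ngp had no read in mesenchyme. Of 13 neural crest and neuronal markers 10 were lower and 1 was higher (Hand2, also a mesenchymal factor), with sums of 199 and 284 CPM, and those without a read in mesenchyme included Sox10, Foxd3 and Gfra3. Of 12 mesothelial markers 4 were lower (sums 427 and 658 CPM), and 4 of 12 for smooth muscle and pericytes were higher (858 and 472 CPM). Of 5 erythroid and platelet markers 3 were higher and 2 lower, with sums of 74 and 32.8 CPM. The part of these cells in the results below was not tested.

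Over all measured genes, 845 (7.00%) were higher and 1637 (13.6%) were lower in mesenchyme, and the median log2 ratio was 0.03. The sides differed in the size of the ratios. Among the higher genes 679 lay between 2-fold and 4-fold and 11 reached 16-fold, whereas among the lower genes 654 lay between 2-fold and 4-fold and 521 reached 16-fold. At 10 CPM or more in epithelium, 232 genes stood under 0.5 CPM in mesenchyme, and 3 genes met the opposite condition. The shares of 7.00% and 13.6% are the background for every list below.

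Among the genes with the largest ratios in mesenchyme was Syt6, a synaptotagmin, at 275 CPM against 37.1 CPM (7.41-fold, 6.86 to 8.01). Nkx3-2, a homeodomain factor of splanchnic mesoderm, was at 153 and 17.8 CPM (8.57-fold, 7.69 to 9.59). The embryonic globin Hbb-y was at 46.2 and 0.235 CPM (196-fold, 83.7 to 606), beside the erythroid marker sums given above. Among those with the largest ratios in epithelium were Pamr1, with no mesenchyme read and 144 CPM (at least 718-fold lower), and the plasma protein gene Ambp, at 0.671 and 670 CPM (999-fold lower, 543 to 2083).

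**Figure D1:**
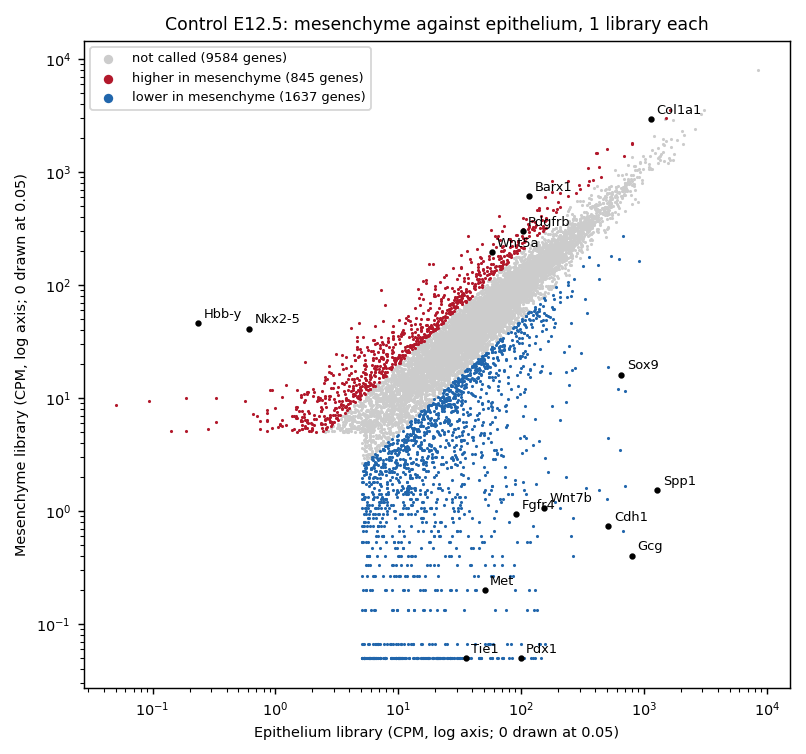
Level of each measured gene in the control E12.5 epithelium library (x axis, CPM, log scale) and mesenchyme library (y axis, CPM, log scale), with genes at 0 drawn at 0.05. Of the 845 genes higher in mesenchyme 679 lie between 2-fold and 4-fold, with Hbb-y and Nkx2-5 farther out, while the 1637 lower genes reach down to no read in mesenchyme, as Pdx1 and Tie1 do.

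Transcription factors of the pancreatic progenitors lay on the epithelium side. Of 25 measured, 23 were lower in mesenchyme and none was higher, with a median log2 ratio of -6.68, where genes without a read are at their bound. Pdx1, required for the pancreas to grow, had no mesenchyme read and 99.5 CPM in epithelium (at least 495-fold lower). Sox9, which keeps progenitors in their state, was at 16.1 CPM in mesenchyme and 656 CPM in epithelium (40.7-fold lower, 35.9 to 46.5). The lower factors with the most left in mesenchyme were the growth regulator Myc, at 75.5 CPM against 185 CPM, and the GATA factor Gata6, at 17.9 CPM against 73.1 CPM (4.08-fold lower, 3.58 to 4.67). Its relative Gata4 was at 2.01 and 74.1 CPM (36.8-fold lower, 25.7 to 54.8). Hes1, a repressor that Notch signalling can switch on, was not called, at 234 CPM in mesenchyme and 173 CPM in epithelium.

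The endocrine programme was on the same side. Of 21 endocrine factors 13 were lower and 1 was higher. Neurog3, which starts endocrine differentiation, had 0.0671 CPM in mesenchyme, 1 count, and 82.8 CPM in epithelium (1234-fold lower, 221 to 48761). The exception was Runx1t1, a corepressor, at 204 CPM in mesenchyme and 93.5 CPM in epithelium (2.18-fold higher, 2.06 to 2.31). Isl1, used by both endocrine cells and dorsal pancreatic mesenchyme, was not called, at 146 and 81.5 CPM. Genes of differentiated function followed. Of 25 hormone and secretory genes listed 18 were measured, all lower in mesenchyme. Among them were the glucagon gene Gcg at 0.402 and 802 CPM (1993-fold lower, 915 to 5431) and the granule protein Chga at 0.0671 and 56.1 CPM. Of 27 acinar genes listed 11 were measured, all lower as well. The carboxypeptidase Cpa1 was at 11.5 and 700 CPM (61-fold lower, 52.5 to 71.4) and the pancreatic colipase Clps at 0.738 and 126 CPM (170-fold lower, 94.9 to 341). A gene near 0 in mesenchyme passes the 5 CPM filter only through epithelium, so counts like these are partly fixed by the filter. Of 13 general epithelial factors 10 were lower, among them the splicing factor Esrp1, at 0.0671 and 76.9 CPM, and Grhl2, an activator of epithelial junction genes, at 0.201 and 41.9 CPM.

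On the mesenchyme side, 16 of 25 splanchnic mesenchyme factors were higher and 2 were lower (median 1.81). Nkx2-5, a homeodomain factor of splanchnic and cardiac mesoderm, was at 41.2 CPM in mesenchyme and 0.612 CPM in epithelium (67.4-fold higher, 39.1 to 127). Meox1 followed at 11.7 and 0.942 CPM (12.5-fold, 7.83 to 20.9). Most other members also had a clear level in the epithelium library. Barx1, a homeodomain factor of foregut mesenchyme, was the member with the most counts per length in both libraries, at 440 CPM per kb in mesenchyme and 83.4 CPM per kb in epithelium. Its level was 615 CPM in mesenchyme and 117 CPM in epithelium (5.27-fold higher, 5.04 to 5.51). The spleen factor Tlx1 was at 109 and 15.9 CPM, while its relative Tlx2 had no mesenchyme read and 19.2 CPM in epithelium (at least 95.3-fold lower). Mecom, the other lower member, also had no read in mesenchyme, against 32.8 CPM. The T-box factors Tbx2 (487 and 139 CPM, 3.51-fold higher, 3.36 to 3.67) and Tbx3 (202 and 36.1 CPM, 5.58-fold, 5.15 to 6.05) were also on the mesenchyme side. So were Tcf21, a factor of visceral mesenchyme, at 335 and 117 CPM, and Prrx1, a factor of limb and craniofacial mesenchyme, at 97.5 and 19.9 CPM. Foxf1, a hedgehog target in gut mesenchyme, was not called, at 29 and 17.2 CPM.

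Factors known from epithelial-to-mesenchymal transition (EMT) were also mostly higher in mesenchyme, 9 of 15, with 2 lower (median 1.64). The E-box repressors Snai2 (281 and 90.1 CPM, 3.12-fold, 2.95 to 3.29), Zeb2 (224 and 70.7 CPM, 3.16-fold, 2.97 to 3.36) and Zeb1 (114 and 43.6 CPM, 2.62-fold, 2.42 to 2.84) were among them. Twist1, another such factor, was at 26.7 and 5.65 CPM (4.72-fold, 3.84 to 5.84).

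Hox genes, which record position along the body axis, were measured in 14 of 39 cases, with 9 higher and none lower. All 9 belonged to paralogue groups 1 to 5, where 11 were measured, and log2 ratios there ran from 0.25 to 2.68. In groups 6 to 8 the 3 measured genes were not called (0.32 to 0.98), and in groups 9 to 13 no gene of 16 was measured. Hoxa3 was at 47.8 CPM in mesenchyme and 7.44 CPM in epithelium (6.42-fold, 5.39 to 7.67), and Hoxb8 at 7.51 and 6.03 CPM. Hox proteins bind DNA with TALE homeodomain partners, of which 2 of 12 were higher and 1 was lower. Pknox2 was at 94.5 and 24 CPM (3.93-fold, 3.55 to 4.36) and Meis3 at 77.3 and 37.7 CPM (2.05-fold, 1.87 to 2.24), a call lost in plain CPM. Pbx2, another TALE factor, was not called, at 89.9 CPM in mesenchyme and 54.5 CPM in epithelium. Of 14 factors on a list of developmental regulators around Six2 and the Eya proteins, 5 were higher and 6 lower. Among the higher ones, Six2 was at 10.1 CPM in mesenchyme and 0.33 CPM in epithelium (151 and 7 counts), and Eya1, Eya2 and Eya4 were between 5.12-fold and 6.37-fold higher. Among the lower ones, Dach1 was at 5.03 and 27.7 CPM (5.51-fold lower, 4.33 to 7.11) and Six4 at 3.42 and 20.8 CPM (6.09-fold lower, 4.55 to 8.3).

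**Figure D2:**
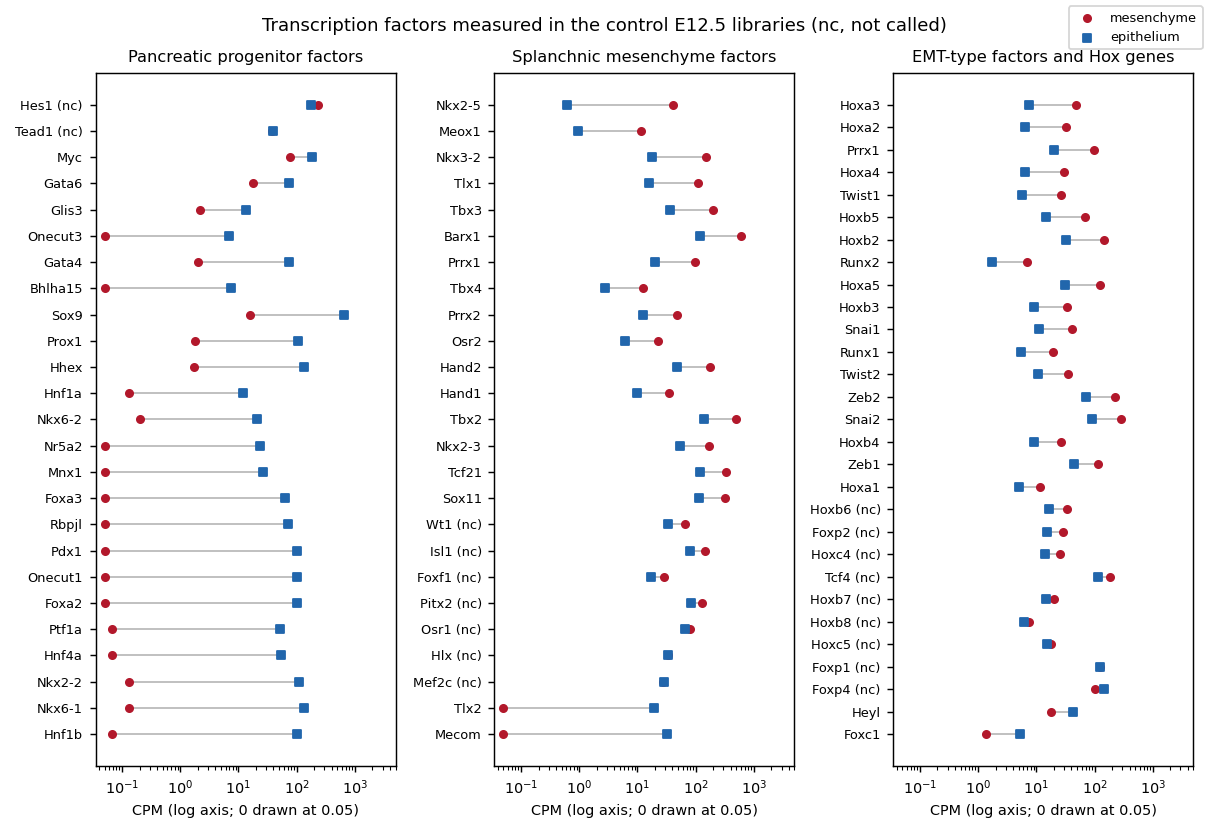
Levels in CPM (x axis, log scale, 0 drawn at 0.05) of measured transcription factors in the control E12.5 mesenchyme (circles) and epithelium (squares), with nc for genes not called. Progenitor factors fall to no read or a few counts in mesenchyme, whereas most splanchnic, EMT-type and Hox genes are higher in mesenchyme with a level left in epithelium.

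Junction and keratin genes lay mostly on the epithelium side. Of 37 epithelial adhesion and keratin genes 32 were lower in mesenchyme and none was higher (median -5.67). Cdh1 (E-cadherin), which joins epithelial cells, was at 0.738 CPM in mesenchyme and 514 CPM in epithelium (697-fold lower, 389 to 1396). The tight junction claudin Cldn6 was at 1.54 and 432 CPM (280-fold lower, 186 to 442), and 9 of 12 claudins were lower. Tjp1, a scaffold under tight junctions that other cells also use, was not called (80.1 and 98.3 CPM). Mesenchymal adhesion was less divided, with 5 of 16 genes higher and 3 lower. Cdh11, the cadherin of many mesenchymal cells, was at 669 and 178 CPM (3.77-fold higher, 3.63 to 3.91), and Cdh2 (N-cadherin) at 184 and 82.5 CPM (2.22-fold, 2.09 to 2.36).

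The Snai and Zeb repressors are known to bind the E-box CAGGTG, and the stretches below show where these letters stand before the start of 4 of the adhesion genes. They were picked as the genes with the most matches in the 200 bases before the start, among called members whose stretch overlaps no annotated exon. Sequences are from RefSeq (GRCm38.p6), 5' to 3' on the gene's strand, with CAGGTG or its reverse complement in capitals.
Ap1m2: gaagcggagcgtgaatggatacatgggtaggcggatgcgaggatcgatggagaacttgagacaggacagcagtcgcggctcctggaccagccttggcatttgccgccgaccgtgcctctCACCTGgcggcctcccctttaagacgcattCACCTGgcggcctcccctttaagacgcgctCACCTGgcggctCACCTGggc
Crb3: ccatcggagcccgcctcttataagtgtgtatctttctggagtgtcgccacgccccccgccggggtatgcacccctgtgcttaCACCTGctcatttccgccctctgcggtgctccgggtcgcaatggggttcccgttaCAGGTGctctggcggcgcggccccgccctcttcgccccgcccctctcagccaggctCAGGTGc
Spint2: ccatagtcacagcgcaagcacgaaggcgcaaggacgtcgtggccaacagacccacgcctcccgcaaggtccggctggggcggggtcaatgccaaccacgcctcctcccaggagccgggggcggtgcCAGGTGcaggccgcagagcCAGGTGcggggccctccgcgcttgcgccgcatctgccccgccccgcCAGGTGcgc
Rab25: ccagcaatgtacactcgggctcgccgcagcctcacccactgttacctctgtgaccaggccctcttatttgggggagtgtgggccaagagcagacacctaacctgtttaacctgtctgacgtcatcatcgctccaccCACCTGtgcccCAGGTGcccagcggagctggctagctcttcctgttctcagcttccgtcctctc
The stretches lie for Ap1m2 at chr9:21312334-21312533 (minus strand), for Crb3 at chr17:57062001-57062200 (plus strand), for Spint2 at chr7:29281978-29282177 (minus strand) and for Rab25 at chr3:88548280-88548479 (minus strand). In Ap1m2, an adaptor subunit for basolateral sorting, the matches begin at -81, -51, -21 and -9 from the start. In Crb3, a polarity protein, they begin at -118, -63 and -7. Spint2, a membrane protease inhibitor, has them at -74, -55 and -9, and Rab25, a trafficking GTPase, at -64 and -53. Ap1m2 was at 0.201 CPM in mesenchyme and 89.7 CPM in epithelium, Crb3 at 0.268 and 57.2 CPM, Spint2 at 19 and 507 CPM, and Rab25 at 0 and 28.6 CPM. These letters are common: 20.2% of all 32851 RefSeq promoters hold them on either strand in the 250 bases before and 50 after the start. The E-box was chosen for display, after the calls were known, from 16 motifs searched. A comparison of called with other genes is void, since 79.9% of the measured genes, and 73.1% of the higher and 76.2% of the lower ones, had a promoter entry, under the 80% required. The matches are a description of letters and say nothing of binding.

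Among all signalling genes, 24 of 110 measured ligands were higher and 22 lower in mesenchyme (median 0.31), and 23 of 126 receptors were higher and 35 lower (median 0.01). The shares of ligands (21.8% higher, 20% lower) and of receptors (18.3% and 27.8%) all lie above the 7.00% and 13.6% over all measured genes.

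Fibroblast growth factors (FGFs) signal through receptor tyrosine kinases. Of 7 measured Fgf genes, counted as ligands by family name alone, 3 were higher in mesenchyme and none was lower. One of the 3 was Fgf13, a call lost in plain CPM. Fgf10, the mesenchymal factor that expands pancreatic progenitors, was at 18.4 CPM in mesenchyme and 8.01 CPM in epithelium (2.3-fold higher, 1.9 to 2.81). Fgf1 was at 21.6 and 6.26 CPM (3.45-fold, 2.81 to 4.25). Fgf9 was not called, at 21.2 and 30.1 CPM. Of 6 receptors 1 was higher and 3 were lower. Fgfr1 was at 263 and 104 CPM (2.53-fold higher, 2.4 to 2.66), Fgfr3 at 8.38 and 29 CPM (3.45-fold lower, 2.85 to 4.22), and Fgfr4 at 0.939 and 90.8 CPM (96.7-fold lower, 57.5 to 177). Klb, a coreceptor that pairs with Fgfr4 in liver, had no mesenchyme read and 20.9 CPM in epithelium (at least 104-fold lower). Fgfr2, whose IIIb form is the epithelial receptor of Fgf10, was not called (155 and 184 CPM), and gene counts do not separate its IIIb and IIIc forms. Of 10 response genes 2 were higher, the feedback inhibitors Spry1 (244 and 94.2 CPM, 2.59-fold, 2.46 to 2.74) and Spry4 (38.5 and 18.6 CPM, a call lost in plain CPM), while Etv5, a factor induced by FGF, was at 36.6 and 67 CPM and was not called.

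Wnt ligands also divided. Wnt5a, a ligand of the non-canonical branch, was at 197 CPM in mesenchyme and 57.5 CPM in epithelium (3.44-fold higher, 3.21 to 3.68), and Wnt5b at 61 and 26.1 CPM (2.34-fold, 2.1 to 2.6). Wnt7b was at 1.07 and 155 CPM (144-fold lower, 88.6 to 252), which made it the called Wnt ligand of the epithelium. Of 15 receptors 1 was called, Fzd6, at 3.02 and 27.4 CPM (9.08-fold lower, 6.7 to 12.6). Secreted and membrane inhibitors lay mostly in mesenchyme, 6 of 10 higher and 1 lower. Sfrp1, which binds Wnts, was at 1490 and 416 CPM (3.58-fold higher, 3.5 to 3.67), and Notum, an enzyme that inactivates Wnts, at 44 and 9 CPM. Frzb, another Wnt-binding inhibitor, was at 7.38 and 0.848 CPM (8.7-fold higher, 5.26 to 15.2). The lower one was Rnf43, which removes Frizzled receptors from the membrane, at 0.268 and 21.2 CPM (79.2-fold lower, 30.7 to 292). Of 7 response genes 5 were higher and none was lower, including the Wnt effector Lef1 at 91.8 and 14.6 CPM (6.3-fold, 5.57 to 7.16) and the feedback gene Nkd1 at 115 and 34 CPM (3.38-fold, 3.09 to 3.69).

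In the BMP and TGF-beta group 2 of 11 ligands were higher and 3 lower. Bmp7 was at 47.8 CPM in mesenchyme and 145 CPM in epithelium (3.04-fold lower, 2.8 to 3.3), and Tgfb2 at 113 and 54.4 CPM (2.08-fold higher, 1.93 to 2.24, a call lost in plain CPM). The type I receptor Bmpr1a was level, at 199 CPM in each library. The coreceptor Tgfbr3 was at 81.6 and 32.9 CPM (2.48-fold higher, 2.26 to 2.72), and Acvr1b, an activin receptor, at 2.41 and 9.47 CPM (3.92-fold lower, 2.74 to 5.76). None of 6 response genes was called, and Id1, a BMP target, was at 150 and 128 CPM.

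No hedgehog ligand was measured. Shh, which early pancreatic epithelium is known to lack, had 1 count in mesenchyme and none in epithelium, Ihh 3 and 0, and Dhh 0 and 4. Of 7 receptors, coreceptors and binding proteins 2 were higher in mesenchyme and 1 was lower. Gas1 was at 764 and 348 CPM (2.2-fold, 2.13 to 2.26) and Boc at 110 and 34.4 CPM (3.2-fold, 2.93 to 3.5). Gli2, a transcription factor of the pathway, was at 38.4 and 8.81 CPM (4.36-fold higher, 3.69 to 5.17). Hhip, a membrane protein that captures hedgehog ligands, was on the other side at 1.54 and 13.8 CPM (8.92-fold lower, 5.83 to 14.3).

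Of 19 Notch genes 9 were lower in mesenchyme, 1 was higher and 9 were not called. The ligand Dll1, carried by differentiating progenitors, was at 1.54 CPM in mesenchyme and 56.6 CPM in epithelium (36.7-fold lower, 24.3 to 58.1). Notch1 was at 19.3 and 103 CPM (5.32-fold lower, 4.7 to 6.03), whereas Notch2 (91.1 and 95.4 CPM) and Notch3 (106 and 74.2 CPM) were not called. Mfng, a glycosyltransferase that modifies Notch, was at 0.872 and 27.2 CPM. Nrarp, a Notch feedback gene, was at 0.134 and 128 CPM (952-fold lower, 263 to 7867), on 2 counts in mesenchyme. Dll4 and Notch4, at 0.268 and 13.4 CPM and at 2.68 and 7.54 CPM, are also used by endothelium, whose markers moved the same way.

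Retinoic acid is made from retinol by retinol and then retinal dehydrogenases. Of 6 genes for its synthesis and supply 2 were higher and 2 lower in mesenchyme. Rdh10, the enzyme of the first step, was at 263 CPM in mesenchyme and 63.8 CPM in epithelium (4.12-fold higher, 3.88 to 4.39). Aldh1a2, the enzyme of the second step, was not called, at 40 and 31.2 CPM. Stra6, a retinol transporter, was at 51 and 13.9 CPM (3.67-fold higher, 3.21 to 4.22), and Rbp4, the retinol carrier that Stra6 binds, at 0.604 and 256 CPM (424-fold lower, 223 to 927). Of 3 enzymes of breakdown 1 was measured, Cyp26b1, at 24.3 CPM in mesenchyme and 3.49 CPM in epithelium (6.99-fold higher, 5.43 to 9.1). The binding protein Crabp2 was at 48.8 and 10.1 CPM (4.82-fold higher, 4.14 to 5.64), and Rxrg, a retinoid X receptor, at 7.24 and 33.4 CPM (4.62-fold lower, 3.77 to 5.71).

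For some other growth factors the partners lay on opposite sides. Hgf was at 23.1 CPM in mesenchyme and 7.35 CPM in epithelium (3.14-fold higher, 2.59 to 3.82), while its receptor Met was at 0.201 and 50.6 CPM (252-fold lower, 85.9 to 1222), on 3 counts in mesenchyme. Pdgfrb, a receptor of mesenchymal and mural cells, was at 301 and 103 CPM (2.91-fold higher, 2.76 to 3.06), and its ligand Pdgfb had no mesenchyme read and 5.28 CPM in epithelium (at least 26.2-fold lower). Pdgfb is also made by endothelium, whose markers moved with it. Pdgfra was at 181 and 67.4 CPM (2.69-fold higher, 2.53 to 2.87), and its ligands Pdgfa and Pdgfc were not called. Csf1 was at 52.2 and 24.4 CPM (2.13-fold higher, 1.91 to 2.39), but its receptor Csf1r, at 12 and 82.9 CPM, is itself a leukocyte marker.

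Several receptors of the epithelium side belonged to the marker sets above. Of 9 PDGF, VEGF and angiopoietin receptors 2 were higher and 6 lower. The endothelial receptors Kdr (4.02 and 49.3 CPM), Flt1 (0.0671 and 8.1 CPM) and Tie1 (0 and 35.4 CPM) moved with the endothelial markers. Ret (0.134 and 18.1 CPM), Gfra3 (0 and 26.5 CPM) and Erbb3 (0.671 and 59.7 CPM) are on the neural crest list. Gdnf and Nrtn, ligands of the Ret system, were also lower in mesenchyme, at 2.55 and 16.8 CPM and at 4.02 and 36.1 CPM.

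Of 19 other growth factor ligands 6 were higher and 3 lower. The neurotrophin Ntf3 was at 45.9 CPM against 4.76 CPM (9.64-fold higher, 7.82 to 12). Igf1 was at 328 and 126 CPM (2.6-fold higher, 2.48 to 2.73), whereas Igf2 was at 1398 and 990 CPM and was not called. Of 7 IGF binding proteins 3 were higher and 2 lower, with Igfbp3 at 601 and 157 CPM (3.82-fold higher, 3.67 to 3.98) and Igfbp7 at 0.0671 and 12 CPM. Kazald1, a relative of these proteins, was at 66.9 and 7.82 CPM (8.55-fold higher, 7.25 to 10.1). Axl, a receptor tyrosine kinase, was at 317 and 103 CPM (3.07-fold higher, 2.92 to 3.23), and its ligand Gas6 was not called (33.5 and 39.8 CPM). Counted per length, midkine (Mdk) led the ligands in both libraries, at 713 CPM per kb in mesenchyme and 612 CPM per kb in epithelium, and was not called.

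Guidance genes, which steer axons and also migrating cells, differed by family. Of 8 Slit and netrin receptors 5 were higher and 1 was lower. Robo2 was at 21.7 and 4.47 CPM (4.86-fold higher, 3.85 to 6.17), Robo1 at 103 and 42.3 CPM (2.43-fold, 2.24 to 2.64) and Unc5c at 123 and 52.9 CPM (2.32-fold, 2.16 to 2.5). The lower one was the endothelial Robo4, at 0.469 and 9.8 CPM. Epha4, an ephrin receptor, was at 271 and 61.3 CPM (4.42-fold higher, 4.15 to 4.7), but of 11 ephrin receptors 2 were higher and 2 lower. Of 10 semaphorin receptors none was higher and 4 were lower. Of 17 semaphorins 3 were higher and 4 lower, with Sema5a at 298 and 117 CPM (2.55-fold higher, 2.43 to 2.68) and Sema4d at 2.68 and 40.3 CPM (15-fold lower, 10.9 to 21.2). Of 13 chemokine genes 7 were lower and 1 was higher in mesenchyme (median -1.96), beside the leukocyte markers that moved the same way. The chemokine Cxcl12 was not called (324 and 253 CPM), and its scavenging receptor Ackr3, the higher gene, was at 64.8 and 29.9 CPM (2.17-fold higher, 1.96 to 2.4).

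**Figure D3:**
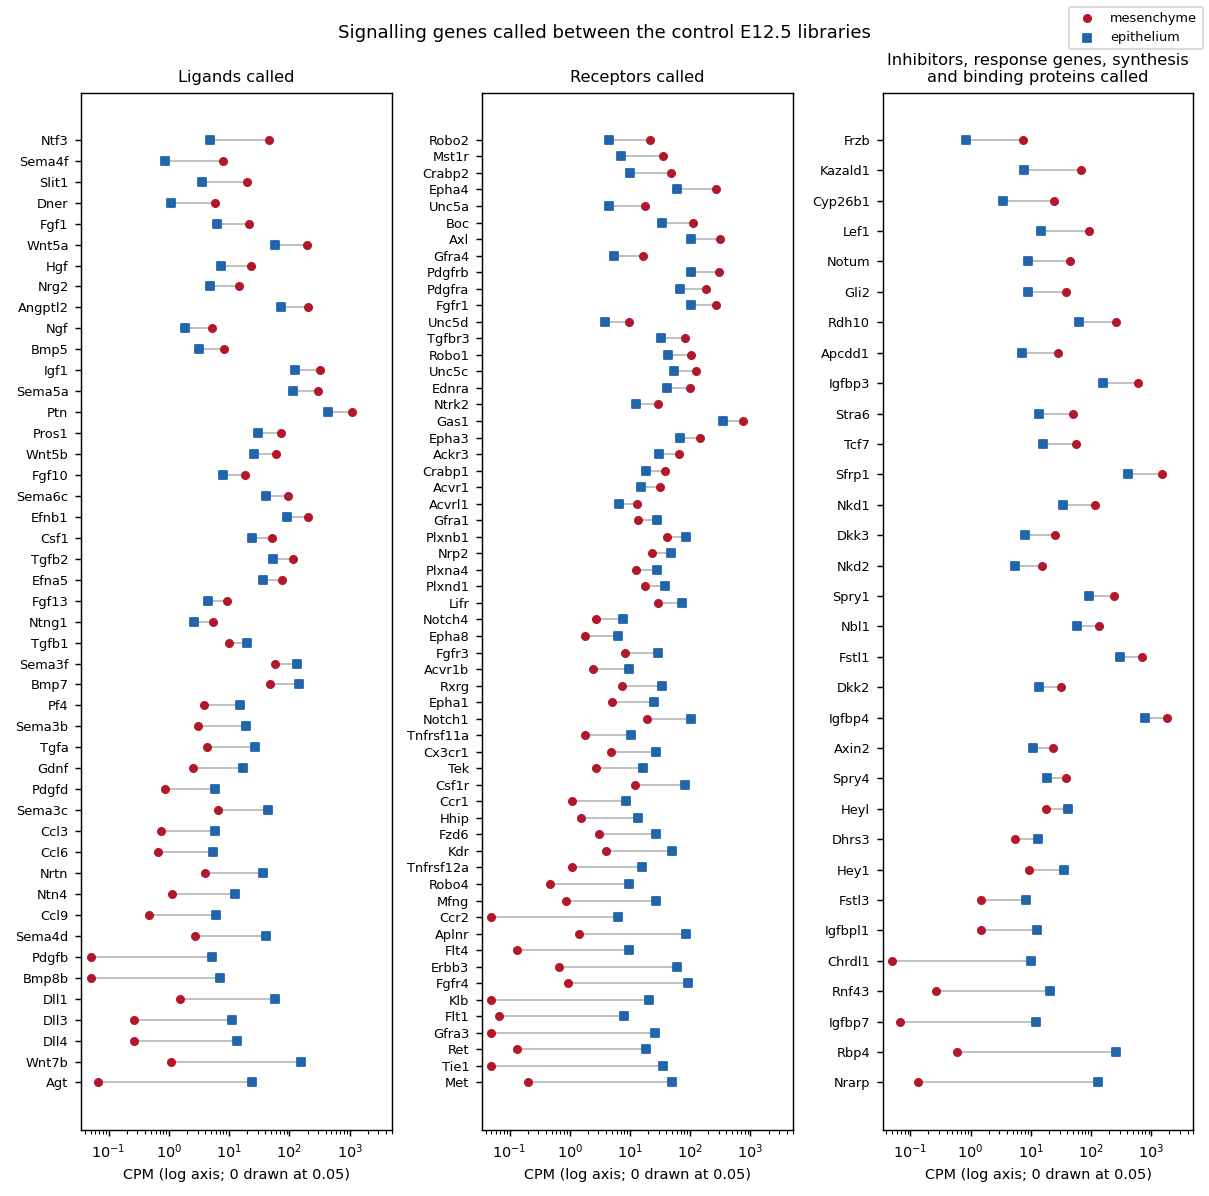
Levels in CPM (x axis, log scale, 0 drawn at 0.05) of the called signalling genes in the control E12.5 mesenchyme (circles) and epithelium (squares). Genes higher in mesenchyme, such as Wnt5a at 197 and 57.5 CPM, keep a level in epithelium, whereas Wnt7b, Met and Nrarp are near 0 in mesenchyme.

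Of 130 listed ligand and receptor pairs, both genes were measured in 90. The genes lay on opposite sides in 6 pairs and on the same side in 13. In 42 pairs 1 gene was called and its partner was not, and in 29 neither was called. The ligand was higher and the receptor lower in mesenchyme for Hgf and Met, Csf1 and Csf1r, Lama1 and Itga6, and Col1a1 and Itga1. The reverse held for Pdgfb and Pdgfd with Pdgfrb. Pairs share genes, so they are not independent of each other. At a filter of 20 CPM the opposite-side count fell to 3, and at a 4-fold threshold it was 0.

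In the matrix, 31 of 107 structural genes were higher in mesenchyme and 26 were lower (median 0.4). Fibrillar collagens, which bear tension in the stroma, were higher in 6 of 10 cases and lower in 2. Col1a1 led per length, at 446 CPM per kb in mesenchyme and 174 CPM per kb in epithelium. Its level was 2930 CPM in mesenchyme and 1142 CPM in epithelium (2.57-fold higher, 2.53 to 2.61). Col3a1 was next per length, at 3041 and 1506 CPM (2.02-fold, 1.99 to 2.05). Col1a2 (1393 and 685 CPM), Col3a1 and Col5a2 (320 and 159 CPM) stood at the 2-fold threshold and all lost the call in plain CPM, so that 3 of the 6 calls remained. Col3a1 and Col5a2 also lost it with DESeq2 size factors. Among the other collagens, Col26a1 was at 275 and 65.1 CPM (4.22-fold, 3.97 to 4.49) and the membrane collagen Col23a1 at 159 and 39.1 CPM (4.08-fold, 3.77 to 4.42).

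Some genes typical of cartilage matrix, picked and grouped after their values were seen, were on the epithelium side. The group is not a full list of cartilage genes. Of all 34 measured collagens 16 were higher and 8 lower in mesenchyme, with 6 and 2 of the 10 fibrillar ones. Col2a1, the main cartilage collagen, was at 13 CPM in mesenchyme and 245 CPM in epithelium (18.8-fold lower, 16.3 to 21.8). Col9a1 was at 3.55 and 68.2 CPM, Col9a3 at 1.68 and 75 CPM and Col11a2 at 1.74 and 21.5 CPM. The cartilage proteoglycan Acan had no mesenchyme read and 45.2 CPM in epithelium (at least 225-fold lower), the matrilin Matn4 was at 0.335 and 69.4 CPM, and the link protein Hapln1 at 0.805 and 19.8 CPM. Col9a2 went against them, at 328 and 117 CPM (2.81-fold higher, 2.67 to 2.95). Sox9, which drives these genes in cartilage, was also on the epithelium side at the values given above.

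Basement membrane genes were called on both sides, which does not show the cells that made them. Of 8 laminin chains 5 were lower and 1 was higher in mesenchyme. Lama5, the alpha chain of epithelial laminins, was at 8.12 and 64.2 CPM (7.91-fold lower, 6.56 to 9.61), and the gamma chain Lamc1 at 77.9 and 236 CPM (3.04-fold lower, 2.85 to 3.24). Lama1 was the chain higher in mesenchyme, at 96.2 and 45.1 CPM (2.13-fold, 1.96 to 2.32). The type IV chains Col4a1 (181 and 198 CPM) and Col4a2 (95.4 and 112 CPM) were not called. Nid1, a nidogen that links laminin to type IV collagen, was at 380 and 161 CPM (2.36-fold higher, 2.26 to 2.47), while its relative Nid2 was not called (134 and 164 CPM). Col18a1, a basement membrane collagen, was at 113 and 433 CPM (3.84-fold lower, 3.64 to 4.05). The related proteins Smoc1 and Smoc2 lay on opposite sides, Smoc1 at 2.95 and 158 CPM (53.7-fold lower, 39.9 to 74) and Smoc2 at 652 and 206 CPM (3.16-fold higher, 3.05 to 3.27). Frem1 and Frem2, which act together in the basement membrane of skin, did so too, at 97.4 and 24.9 CPM and at 17.2 and 97.1 CPM.

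Among the adhesive and elastic glycoproteins 7 of 32 were higher and 6 lower. Spp1 (osteopontin) was at 1.54 and 1287 CPM (834-fold lower, 556 to 1316), and Vtn (vitronectin) at 2.01 and 231 CPM (115-fold lower, 80.4 to 170). Tgfbi was at 843 and 177 CPM (4.75-fold higher, 4.58 to 4.93), and Emilin1, an elastic fibre protein, at 841 and 239 CPM (3.52-fold, 3.41 to 3.64). Of 13 crosslinking enzymes 5 were higher and 1 lower, among them Loxl1 at 130 and 45.6 CPM (2.86-fold, 2.64 to 3.09). Of 32 proteases and inhibitors 10 were higher and 7 lower. The collagen and gelatin protease Mmp2 was at 360 and 129 CPM (2.78-fold higher, 2.66 to 2.92), and Adamts1, a proteoglycan protease, at 165 and 909 CPM (5.52-fold lower, 5.29 to 5.75).

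By count of genes, matrix receptors lay mostly with the epithelium, 12 of 20 lower and 1 higher in mesenchyme (median -1.66). Their summed levels were close, at 1506 CPM in mesenchyme and 1530 CPM in epithelium, and at a filter of 20 CPM the median was 0.10. The laminin-binding integrin subunit Itga6 was at 12.1 and 107 CPM (8.88-fold lower, 7.62 to 10.4) and Itga3 at 15.2 and 44 CPM (2.91-fold lower, 2.51 to 3.37). Itgb6 had no mesenchyme read and 10.8 CPM in epithelium (at least 53.6-fold lower). Itgb2 (0.0671 and 5.79 CPM) and Itgal (0.604 and 7.35 CPM) are leukocyte integrins and moved with the leukocyte markers. The higher one was Itga8, at 186 and 32.6 CPM (5.72-fold, 5.26 to 6.22). Its ligand Npnt (nephronectin) was not called, at 155 and 88.6 CPM. Itgb1, the subunit that most of these integrins share, was level at 571 and 529 CPM. In the mutant pair 8 of 18 matrix receptors were lower and 3 higher, and 6 were lower in both pairs.

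**Figure D4:**
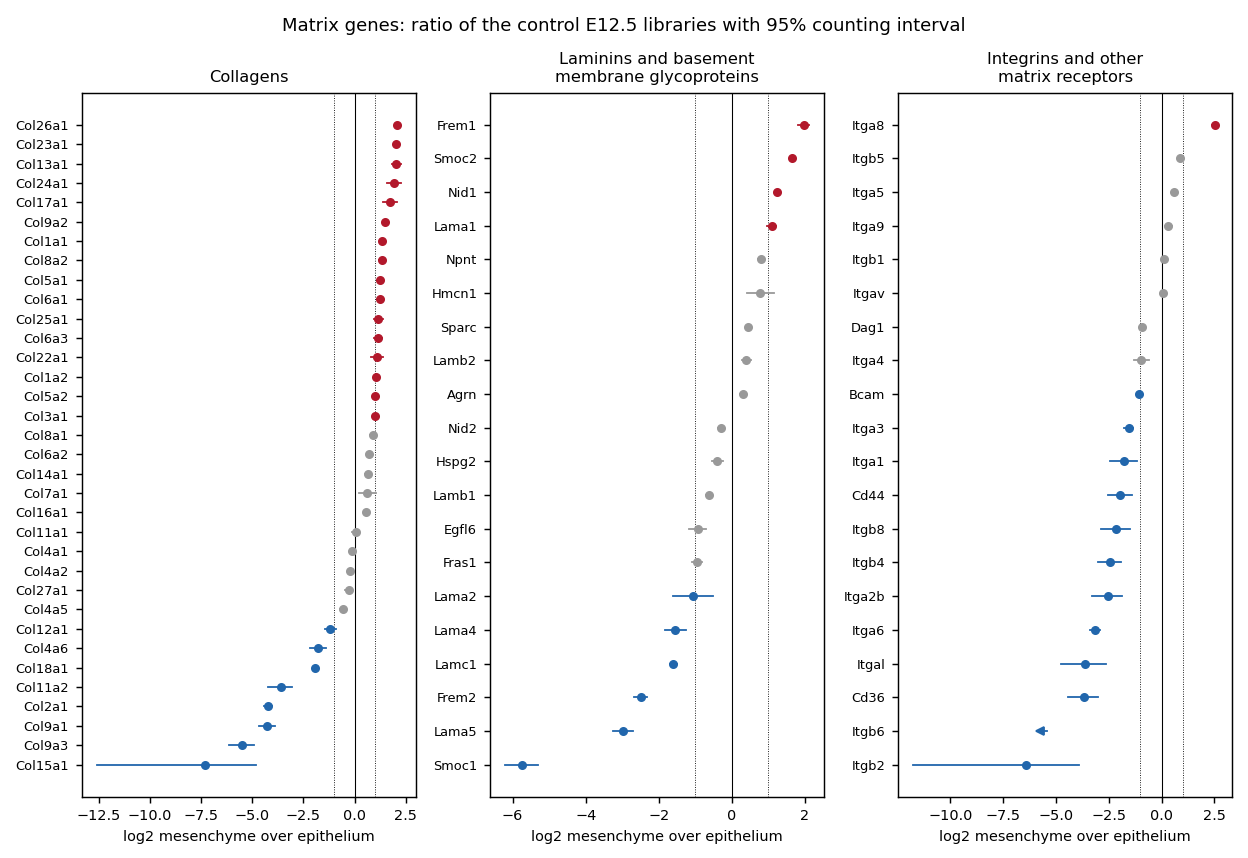
Log2 ratio of mesenchyme over epithelium (x axis) for the collagens, basement membrane genes and matrix receptors reported here, with 95% counting intervals. Red points are higher in mesenchyme, blue points lower and grey points not called, the triangle marks a lower bound, and dotted lines stand at 2-fold. Collagens spread to both sides, while among the matrix receptors Itga8 is the red point.

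The mutant pair shares no library with the control pair, and its values are set beside it. Pbx2 was at 56 CPM in the mesenchyme library labelled mutant, against 89.9 CPM in the control mesenchyme, and at 49.7 CPM in the epithelium library labelled mutant, against 54.5 CPM. In the mutant pair 648 (5.42%) of 11956 measured genes were higher and 1541 (12.9%) lower in mesenchyme. Genes lower in both pairs numbered 1157 and genes higher in both 294, so 70.7% of the control's lower genes and 34.8% of its higher genes had the same call. All 23 progenitor factors lower in the control were lower in the mutant pair. Of the 16 splanchnic factors higher in the control 13 were higher in the mutant pair, and all 9 Hox genes were. Of the 9 EMT-type factors higher in the control 3 were higher in the mutant pair.

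Of the 24 ligands higher in the control 9 were higher in the mutant pair, and of the 31 matrix genes 14, beside the 34.8% over all higher genes. Of the 5 Wnt response genes higher in the control 1 was higher in the mutant pair, and of the 6 Wnt inhibitors 3. None of the 4 semaphorin receptors lower in the control was lower in the mutant pair. Hgf (29.5 CPM in mesenchyme and 6.04 CPM in epithelium), Fgf10 (15.6 and 5.45 CPM), Wnt5a (207 and 81.1 CPM) and Itga8 (179 and 35 CPM) kept their call. Sfrp1 (687 and 635 CPM), Barx1 (378 and 239 CPM) and Smoc2 (221 and 256 CPM) did not. Wnt7b (0.129 and 93.8 CPM), Met (0.193 and 26 CPM), Fgfr4 (1.93 and 71.9 CPM) and Spp1 (2.64 and 984 CPM) kept theirs on the epithelium side. Csf1, Lama1 and Col1a1 were not called in the mutant libraries. Of the 4 control pairs with the ligand higher and the receptor lower in mesenchyme, 1 thus remained, Hgf and Met. Pdgfb and Pdgfd with Pdgfrb also remained, and ligand and receptor pairs on opposite sides again numbered 6. In the mutant libraries mesenchyme markers summed to 8963 CPM in mesenchyme and 5162 CPM in epithelium, and smooth muscle and pericyte markers to 557 and 634 CPM. Mesothelial markers were lower in 10 of 12 cases, with sums of 279 and 761 CPM, and erythroid and platelet markers summed to 9.58 and 40.2 CPM. Their part in the lost calls was not tested, and no difference between the pairs was tested.

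**Figure D5:**
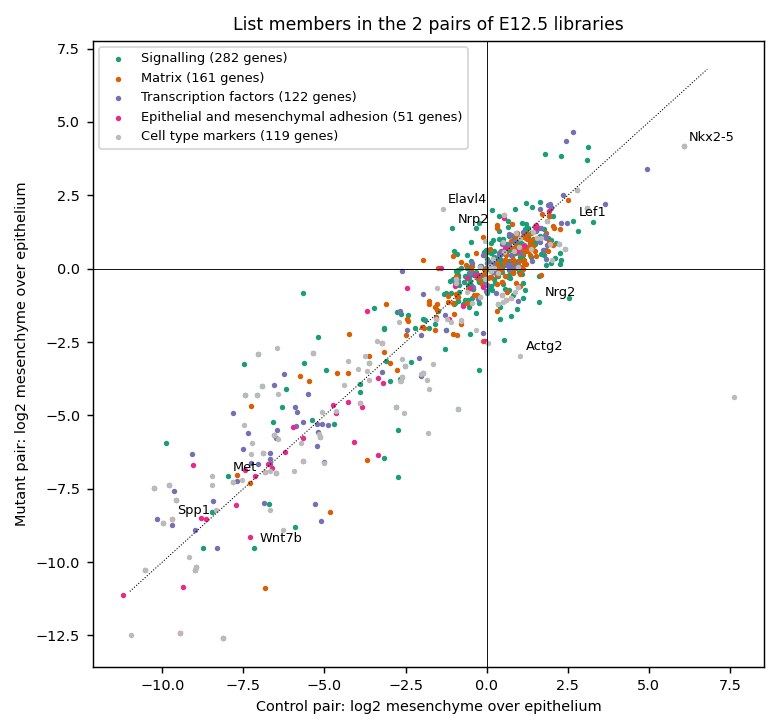
Log2 ratio of mesenchyme over epithelium in the control pair (x axis) and the mutant pair (y axis) for list members measured in both, with the dotted line marking equal ratios and genes without a read in 1 library drawn at their bound. Epithelial genes such as Wnt7b, Met and Spp1 lie low in both pairs, and Actg2 and Elavl4 lie in opposite quadrants.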

How the data were processed

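Per the labels' protocols and the files, the authors provided unnormalised counts of reads for each gene symbol, with each library in its own file. The submitters' processing notes list the build mm10 and the programs Cuffdiff 2.2.1 and Cufflinks 2.2.1. How reads were aligned and counted, and whether strand was used, is not stated in these sources, so overlapping genes are uncertain. From these counts, 5 summary lines per table were dropped (reads with no gene, 4.69% to 8.84% of the library, ambiguous reads, 1.53% to 1.72%, and reads placed several times, 13.72% to 20.05%, among them) and CPM computed with TMM factors over all 6 libraries (edgeR 4.0.16, R 4.3.3). Ratios carry exact 95% conditional binomial (Clopper-Pearson) intervals, which cover counting error only, since reads are not independent molecules. A library with no read was given a floor of 3 counts. CPM per kb used exon lengths from GENCODE M21. Further work used Python 3.11.15.

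Members and lists were chosen with earlier results of these data known. Any member of a list, family or pair could be named, and up to 15 genes each way with the largest interval bound. Those printed were selected after their values were seen. The cartilage grouping was made after the values were seen. For promoters, 10 motifs were searched on both strands first (the E-box CAGGTG and the HNF1, GRHL, FOX, TEAD, PBX-HOX, AP-1, CArG, HNF4 and RFX motifs) and 6 hexamers later (4 other E-boxes of the form CANNTG and 2 hexamers near to them). The E-box shown was picked after the values were seen. A later restriction to chromosomes with more entries was tried after that result was known and is not used for any comparison. The pick of the stretches shown left out entries on chr18. Alternatives were DESeq2 1.42.0 size factors, plain CPM, TMM over the pair, scaling without the 50 most abundant genes, thinning, other filters and thresholds, and marker genes left out. Some genes and 1 item of the mutant genotype are not reported here.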

Additional observations from a re-analysis of the deposited data

Results flagged for a closer look

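For 7 list members the ratio of mesenchyme over epithelium was called in opposite directions in the control and mutant pairs. The difference was not tested, with 1 library in each group. The log2 ratio of Actg2, a smooth muscle actin, was 1.04 in the control and -2.96 in the mutant pair. Its control call was lost in plain CPM and after thinning. That of Elavl4, a neuronal RNA-binding protein, was -1.36 and 2.04. The embryonic globin Hbb-y was at 7.62 and -4.37. The ligand Nrg2 was at 1.61 and -1.12, and the semaphorin receptor Nrp2 at -1.07 and 1.38. The solute carriers Slc13a4 and Slc27a6 were at 2.63 and -1.18, and at 1.18 and -1.91. Over all genes, 14 were higher in the control and lower in the mutant pair, and 5 the reverse.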

How the results depend on the processing

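No paired analysis was possible because each group has 1 library. Under every scaling tried (DESeq2 size factors, plain CPM, TMM over the pair, without the 50 most abundant genes, thinned), none of 503 called members changed direction, and between 1 and 16 lost the call, with 16 under plain CPM (among them Actg2, Acvr1, Acvrl1, Col1a2, Col3a1, Col5a2, Fgf13, Meis3, Spry4, Tgfb2 and Efna5). The counts of genes moved with filters and thresholds. A filter at 1 CPM gave 2659 lower, a filter at 20 CPM gave 540 higher and 853 lower, and no filter gave 1519 higher and 3120 lower. A 1.5-fold threshold gave 1821 higher and a 4-fold threshold 166 higher and 983 lower. Without the condition on the interval the counts stayed at 845 and 1637, so it removed no gene. With the interval bound at 2-fold they were 586 higher and 1376 lower. Pairs on opposite sides numbered 3 at 20 CPM, 16 at 1.5-fold, 0 at 4-fold and 4 with the interval bound at 2-fold. The median log2 ratio of ligands was 0.02 at 1 CPM, 0.59 at 20 CPM and -0.04 without a filter, that of receptors 0.20 at 20 CPM and -0.09 without a filter, and that of matrix genes 0.56 and 0.12. At 20 CPM the medians of Notch ligands (0.02), matrix receptors (0.10), integrins (0.10) and chemokine genes (0.36) changed sign. At 1 CPM and with no filter those of erythroid markers (-1.39 and -1.96) and Nkx genes (0.09 in both) did. Medians of further lists also changed sign, and not all are named here. Those of FGF ligands and of other growth factor ligands and receptors turned from positive to negative at 1 CPM and with no filter. That of BMP and TGF-beta ligands did so at 1 CPM. Those of Wnt ligands, BMP and TGF-beta inhibitors and retinoic acid synthesis genes turned from negative to positive at 20 CPM. These medians change with the genes a filter lets in. Without replicates the spread between pools is unknown.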
